A study of Salmo trutta with 45 samples.

Results

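The stress gene ddit4 and its relative ddit4l were represented by 7 of the 67093 Trinity transcripts listed in any of the 5 deposited tables. The transcripts were chosen by annotation, as those with a best zebrafish hit to ENSDARG00000037618 (ddit4) or with the words DNA-damage-inducible transcript 4 in any of the 3 annotation columns (zebrafish, human or mouse, other fish). The gene itself was selected on its level in the fish given high glyphosate, so the values of that comparison are a description and carry no test. The 7 transcripts fell into 4 Trinity components, a component being the group of assembled isoforms that stands for a gene or a gene copy.

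In mammals, DDIT4 (also called REDD1) is a small protein made under low oxygen, DNA damage, lack of energy, endoplasmic reticulum stress and glucocorticoids. It restrains mTORC1, the kinase complex that drives protein synthesis and growth, through the TSC1-TSC2 complex and the GTPase Rheb. DDIT4L (REDD2) is a related protein that also restrains mTOR signalling in mammals, and in liver mTORC1 follows insulin and amino acids. The ancestor of salmon and trout duplicated its whole genome, so many trout genes are present as similar copies.

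Juvenile female brown trout (Salmo trutta) were held for 14 days in flowing water with Roundup, a commercial formulation of glyphosate, with glyphosate alone, or with neither. Livers of 6 fish each came from LR, MR and HR (Roundup at 0.01 mg/L in LR, 0.5 mg/L in MR and 10 mg/L in HR, as glyphosate acid equivalent) and from LG and HG (glyphosate at 0.01 and 10 mg/L), and 12 came from controls (C) in clean water. All fish were of 1 hatchery stock and 6 months old, every library was from 1 fish, and a middle glyphosate group of 3 fish (MG) was not analysed here. The treatments ran in 2 tanks each, which the labels do not give, so the p-values measure the spread between fish and cannot tell tank from treatment.

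Libraries held between 10223638 and 33291845 reads on listed transcripts. A single read was worth between 0.0334 and 0.0989 CPM (reads scaled to a common library size by TMM effective library sizes of 42 fish), so the members, most of them under 5 CPM, rested on few reads per fish. For each fish the mean absolute difference of its log2 CPM from the median of the other fish of its group, here called its departure, was between 0.334 and 0.492 in 37 fish and over 0.5 in the other 5, namely LR3 (0.566), MR1 (0.769), MR4 (0.527), HR3 (0.546) and LG1 (0.804). Results that turn on these 5 fish are given with and without them. Markers of hepatocytes dominated every liver, with a summed level between 73921 and 151716 CPM over the 10 of 11 markers matched, against between 33.5 and 102 CPM for the 4 of 15 exocrine pancreas markers matched.

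The components were told apart by their best hits. All 3 isoforms of comp118741_c0 (seq3, seq4 and seq5) matched zebrafish ddit4, human DDIT4 and a tilapia transcript named DDIT4 copy 1 of 2. The single transcript of comp112788_c0 (seq3) matched zebrafish ddit4 and a stickleback DDIT4 copy 2 of 2, with no human or mouse hit. Both isoforms of comp116614_c7 (seq1 and seq2) matched human and medaka DDIT4L although their zebrafish hit was ddit4, so their name is the less certain. The transcript of comp114366_c0 (seq1) matched mouse Ddit4l and had no zebrafish hit. By these hits 4 transcripts were taken as ddit4 and 3 as ddit4l.

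Of the 7 members, 5 were listed in all 5 tables. The isoforms seq4 and seq5 of comp118741_c0 were listed in the HG table alone, where every listed transcript had over 1 CPM in at least 3 of 18 fish. In the controls, 1 of 12 fish for seq4 and 0 of 12 for seq5 exceeded 1 CPM. They are on record because the HG fish were high, and no count or median over the isoforms is used in support of that level. The leading transcript of each component was the most abundant over all 42 fish among those listed in all 5 tables. These were comp118741_c0_seq3, comp112788_c0_seq3, comp116614_c7_seq2 and comp114366_c0_seq1, and only comp116614_c7 offered a choice.

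The leading transcript of the first ddit4 component had its highest group median and its highest single value at high glyphosate. In HG livers comp118741_c0_seq3 had 1.83, 2.09, 0.798, 1.56, 26.4 and 3.16 CPM in fish 1 to 6, against a lowest value of 0.0555, a median of 0.284 and a highest of 1.37 CPM in the 12 controls. In 5 of the 6 HG fish the level was above every control, and HG3, at 0.798 CPM, lay inside the control range. Across all 63537 transcripts tested in that table, 0.105% had at least 5 of 6 HG fish above every control, a figure set beside the count for reference only, since the gene was picked from this contrast.

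HG5 alone held 73.7% of the summed CPM of the HG group, with 301 reads on this isoform. The mean was 5.98 ± 10.1 CPM in HG fish and 0.475 ± 0.462 CPM in controls (SD, n = 6 and 12), and the fitted log2 fold change was 3.60 ± 0.63 (SE). Without HG5 the HG mean was 1.89 ± 0.858 CPM (n = 5) and the fitted log2 fold change was 1.97. The median was 1.96 CPM in HG fish and 0.284 CPM in controls. HG5 had the fewest reads of the HG libraries and of all 42, and its departure of 0.441 lay inside the range of the other HG fish.

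**Figure D1:**
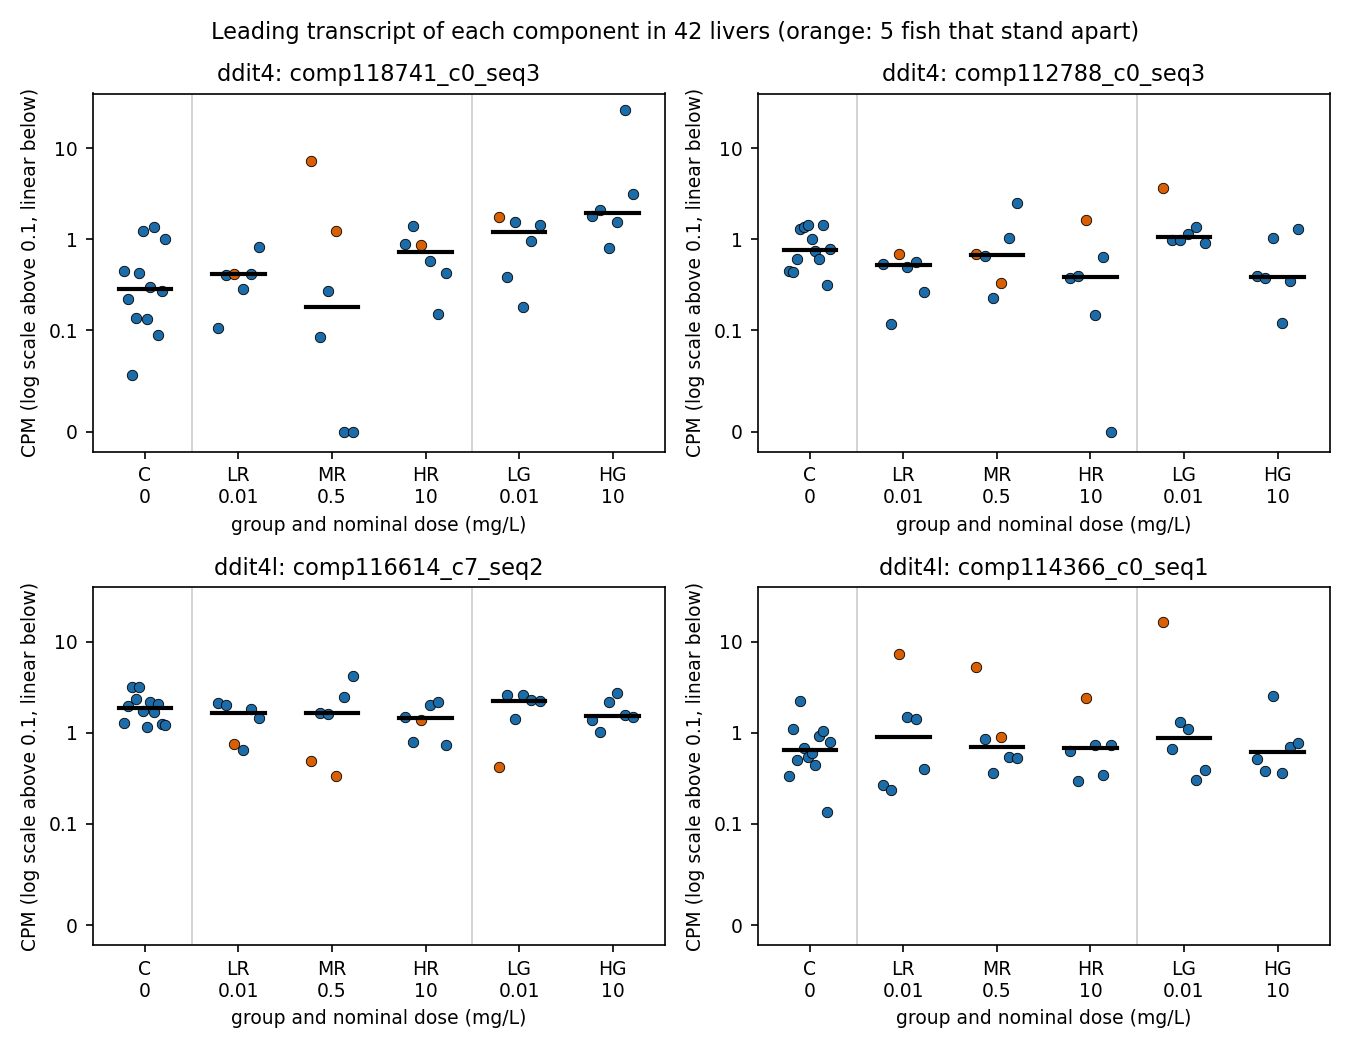
CPM of the leading transcript of each ddit4 and ddit4l component in 42 livers (vertical axes: CPM, logarithmic above 0.1 and linear below; horizontal axes: group with its nominal dose in mg/L). Each point is 1 fish, lines are group medians, and orange points are the 5 fish whose departure was over 0.5. The HG median is the highest for comp118741_c0_seq3 and HG5 reaches 26.4 CPM, while single orange points lead comp114366_c0_seq1, up to 16.6 CPM in LG1.

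The other isoforms of the component had the same fish at the top. In HG livers comp118741_c0_seq4 had 0.652, 1.65, 0.684, 0.180, 16.2 and 2.20 CPM, against between 0 and 1.37 CPM in controls. HG fish and controls overlapped, with 3 of 6 HG fish above every control. In 3 controls seq4 had 0 reads, which allows up to between 0.166 and 0.205 CPM (3 reads per library, for counting error only). In HG livers comp118741_c0_seq5 had 1.63, 1.90, 0.969, 0.841, 17.7 and 2.14 CPM, against between 0.0858 and 0.916 CPM in controls, and 5 of 6 HG fish were above every control. Fitted log2 fold changes were 3.49 ± 0.72 for seq4 and 3.68 ± 0.56 for seq5 (SE).

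Reads were mapped with 1 reported hit each, so isoforms of a component can trade reads, and shares of reads describe the isoforms together. Over fish with at least 20 reads on the component, seq3 took 43.4% ± 9.51 of the 3 isoforms' reads in HG fish and 45.8% ± 16.5 in controls (SD, n = 6 and 4). The share of seq4 was 22.7% ± 9.21 in HG fish and 30.3% ± 13.9 in controls, and that of seq5 was 33.9% ± 4.81 in HG fish and 23.9% ± 2.73 in controls. The cut at 20 reads kept only the 4 controls with the most reads. In the controls below it the share of seq5 ran between 12.5% (C5, 2 of 16 reads) and 75.0% (C4, 6 of 8 reads). The shares of this component were not tested. In HG5, the fish with 687 reads on the component, the shares were 43.8% for seq3, 26.8% for seq4 and 29.4% for seq5, each inside the range of the other HG fish. The lowest share of seq4 was that of HG4, where 3 of 43 reads gave 6.98%.

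**Figure D2:**
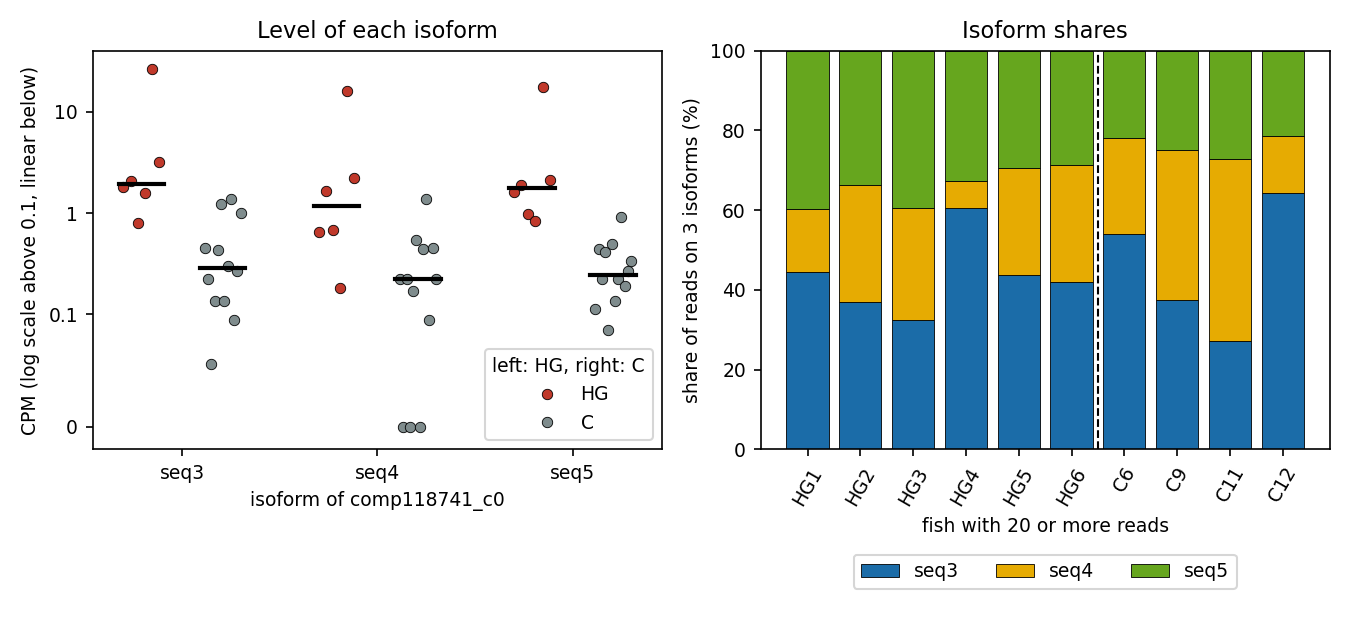
The 3 isoforms of comp118741_c0 in HG and control livers. The left panel plots CPM per fish (vertical axis, logarithmic above 0.1) with HG left of C for each isoform and lines at the medians, and the right panel plots each isoform's share of reads (%) in the 6 HG and 4 control fish with 20 or more reads. HG5 is the top point for every isoform, at 26.4, 16.2 and 17.7 CPM, and seq5 takes between 28.6% and 39.7% of reads in HG fish.

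The second ddit4 component lay within or below the control range at high glyphosate. In HG livers comp112788_c0_seq3 had 0.391, 0.380, 1.03, 0.120, 0.351 and 1.31 CPM, against a lowest value of 0.315, a median of 0.765 and a highest of 1.45 CPM in controls. No HG fish was above the controls, HG4 was below all of them, and HG5 was at 0.351 CPM. The mean was 0.597 ± 0.463 CPM in HG fish and 0.878 ± 0.420 CPM in controls, with a log2 fold change of -0.55 ± 0.41 (SE).

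Within each fish, the reads of comp118741_c0_seq3 divided by those of comp112788_c0_seq3 give a ratio that library size does not touch. The ratio was 0.778 at the lowest, 5.08 at the median and 75.3 at the highest in the 6 HG fish, against 0.0667, 0.450 and 2.25 in the 12 controls. It was above every control in 5 of 6 HG fish, in 2 of 6 LR, 2 of 6 MR, 3 of 5 HR and 0 of 6 LG fish. The HG part is a description only, since the gene was picked on its level in HG. Counts in the other groups are descriptions too, since no share over other pairs of transcripts was taken. The ratios rest on few reads, with 301 over 4 reads in HG5 and 26 over 2 in HG4. HR6 had no reads on comp112788_c0_seq3 and gave no ratio.

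At high glyphosate the leading transcripts of both ddit4l components stayed among the controls, apart from 1 fish each. In HG livers comp116614_c7_seq2 had 1.37, 1.01, 2.17, 2.76, 1.58 and 1.49 CPM, against between 1.15 and 3.22 CPM in controls, and only HG2 was below that range. The log2 fold change was -0.18 ± 0.25 for this isoform and -0.27 ± 0.40 for seq1 (SE). Summed over both isoforms, comp116614_c7 ran between 1.63 and 4.08 CPM in HG fish, inside the control range of 1.44 to 5.89 CPM. In HG livers comp114366_c0_seq1 had 0.521, 0.380, 2.57, 0.360, 0.703 and 0.774 CPM, against between 0.135 and 2.26 CPM in controls, and only HG3 was above that range. Its log2 fold change was 0.20 ± 0.46 with all 6 HG fish and -0.51 ± 0.45 without HG3. In this contrast 0.00157% of the 63537 tested transcripts passed an FDR of 0.1 (edgeR). No call of a member is given, since the contrast that chose the gene is no test of it. The isoforms seq4 and seq5 of comp118741_c0 were also listed only because the HG fish were high. Over all transcripts a robust fit and component sums called 0 in HG, as did fits leaving out 1 control other than C9. RLE factors called 1, a replicate block 2, and fits leaving out 1 HG fish 1 or 2. All these HG counts include the members among the transcripts tested, so they are neither a test of the members nor a background apart from them.

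**Figure D3:**
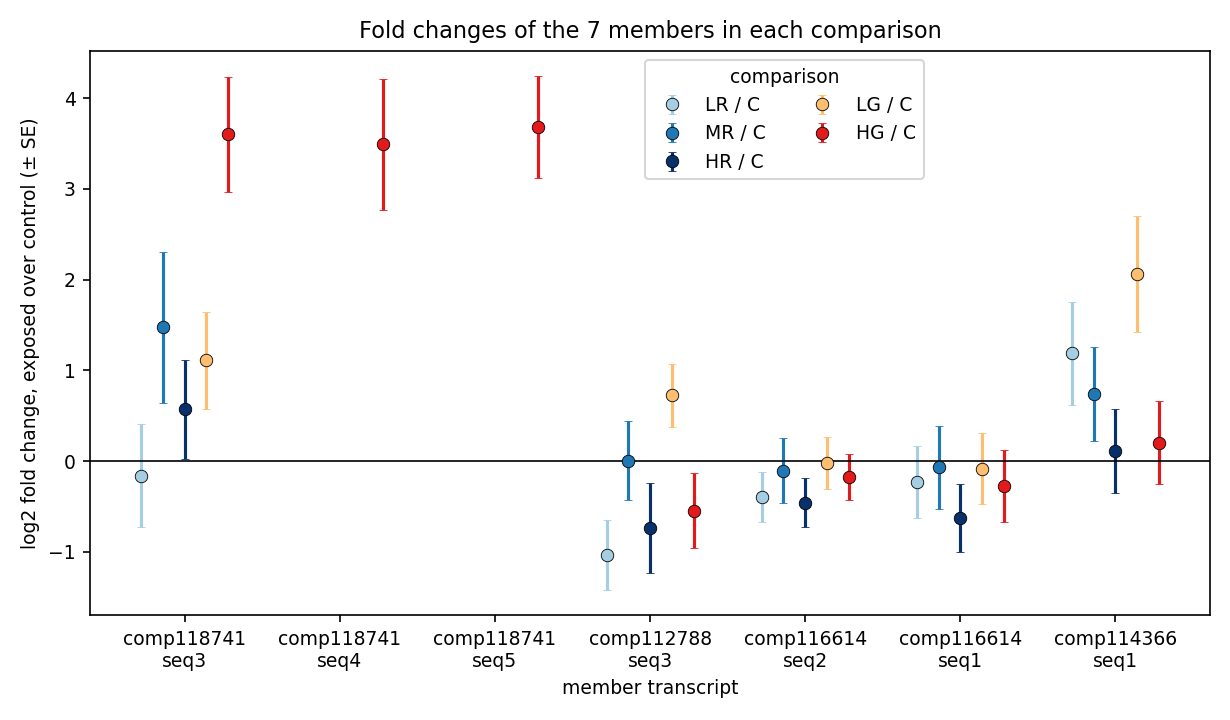
Fitted log2 fold change of each member (vertical axis, exposed over control, edgeR) with its standard error as bars, by member transcript (horizontal axis), with colours for the 5 comparisons, which share the 12 controls. In HG the isoforms of comp118741_c0 lie at 3.60, 3.49 and 3.68 and the other 4 members between -0.55 and 0.20.

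The other treatments were tested, with edgeR's quasi-likelihood test and Benjamini-Hochberg adjustment over all transcripts of the table, calling an FDR under 0.1. Of the 5 members listed there, 0 were called in LR, where 0.0209% of all tested transcripts were called, 0 in MR (0.00159%), 0 in HR (0.00639%) and 0 in LG (0% of 63513). At an unadjusted p under 0.05 stood 2 members in LR, 0 in MR, 0 in HR and 2 in LG, where 7.75% (LR), 8.93% (MR), 7.34% (HR) and 6.72% (LG) of all transcripts did. DESeq2, which gave an adjusted p to between 2 and 4 of the 5, called 0 in each of these comparisons, and edgeR's exact test called 1 in LG and 0 in the others. The 5 comparisons with controls use the same 12 control fish, so a high or low control moves all of them.

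Among the ddit4 components, comp118741_c0_seq3 had its next highest group median in LG. In LG livers it had 1.76, 0.385, 1.56, 0.182, 0.960 and 1.44 CPM, and 3 of 6 fish were above the highest control at 1.37 CPM. The share of all transcripts with such a count was not taken, so the count is a description only. The mean was 1.05 ± 0.651 CPM in LG fish and 0.475 ± 0.462 CPM in controls (SD, n = 6 and 12), and the log2 fold change of 1.11 ± 0.54 (SE) did not pass (adjusted p = 0.75, edgeR).

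In MR livers the same transcript had 7.22, 0.0940, 0.271, 1.23, 0 and 0 CPM. MR1 alone was above the controls, and the 2 fish at 0 reads allow up to 0.150 and 0.196 CPM. The log2 fold change was 1.48 ± 0.83 (SE, adjusted p = 0.65, edgeR). It was -0.58 without MR1 and -2.19 without MR1 and MR4, the 2 MR fish that stand apart. The values ran between 0.106 and 0.834 CPM in LR fish and between 0.151 and 1.40 CPM in HR fish, where only HR2 exceeded the controls, and the log2 fold changes were -0.16 ± 0.57 and 0.57 ± 0.55 in LR and HR (adjusted p = 0.97 and 0.89, edgeR).

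For comp112788_c0_seq3 the medians of LR and LG lay on opposite sides of the control median, and both groups overlapped the controls. In LR livers it had 0.532, 0.117, 0.691, 0.501, 0.562 and 0.267 CPM, so that 0 of 6 fish were above the control median of 0.765 CPM and 2 were below the lowest control. The log2 fold change was -1.03 ± 0.39 (SE, adjusted p = 0.54, edgeR). In LG livers it had 3.65, 0.989, 0.976, 1.13, 1.38 and 0.918 CPM, so that 6 of 6 fish were above the control median and LG1 alone was above the highest control. The log2 fold change was 0.72 ± 0.34 (SE, adjusted p = 0.73, edgeR) and 0.28 without LG1. For these counts of LR and LG fish no share of all transcripts was taken, so they are descriptions only. In MR the range was between 0.226 and 2.49 CPM and in HR between 0 and 1.62 CPM, where HR3, a fish that stands apart, was the highest and the 0 reads of HR6 allow up to 0.158 CPM, with log2 fold changes of 0.01 ± 0.43 and -0.74 ± 0.50 (adjusted p = 1.00 and 0.82, edgeR). HR3 held 50.9% of the summed CPM of HR, and without it the log2 fold change was -1.43 (adjusted p = 1.00, edgeR).

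LG and LR were given the same nominal 0.01 mg/L, as glyphosate and as Roundup, and were compared directly over 6 fish each. For comp112788_c0_seq3 the mean was 1.51 ± 1.06 CPM in LG fish and 0.445 ± 0.212 CPM in LR fish, and 6 of 6 LG fish were above the highest LR fish, as held for 0.0705% of the 61030 transcripts tested. The log2 fold change was 1.77 with an interval (1.96 SE either way) of 0.90 to 2.64, an unadjusted p of 0.00126 and an adjusted p of 1.00 (edgeR), and of 61030 transcripts tested 0% were called. For comp118741_c0_seq3 the log2 fold change was 1.27, with an interval of 0.22 to 2.31, and for comp116614_c7_seq2 it was 0.37, with an interval of -0.39 to 1.14. For comp114366_c0_seq1 it was 0.88, with an interval of -1.12 to 2.88, and all of these adjusted p-values were 1.00. Without LG1 the log2 fold change was 1.31 for comp112788_c0_seq3 and -1.19 for comp114366_c0_seq1, and without both LG1 and LR3 it was 1.47 for comp112788_c0_seq3 and 0.095 for comp114366_c0_seq1. At 10 mg/L the values stand side by side without a test: comp118741_c0_seq3 had a median of 1.96 CPM in HG fish and 0.729 CPM in HR fish, and comp112788_c0_seq3 0.386 CPM in HG fish and 0.389 CPM in HR fish.

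The ddit4l transcript with the highest single values was comp114366_c0_seq1, and in each exposed group 1 fish carried them. The top fish was LR3 at 7.33 CPM, MR1 at 5.24, HR3 at 2.43, LG1 at 16.6 and HG3 at 2.57 CPM, each above the highest control at 2.26 CPM. The other 5 fish of each group lay between 0.234 and 1.50 CPM, inside the control range. In LG livers LG1 held 236 reads and 81.5% of the group's summed CPM, and the log2 fold change was 2.06 ± 0.64 (SE, unadjusted p = 0.00387, adjusted p = 0.56, edgeR). The exact test gave an adjusted p of 0.086, the 1 member call of that test, in a comparison where that test called 0.446% of 63513 transcripts. The gene was chosen with results of these fish known, so this p is not independent evidence. Without LG1 the log2 fold change was -0.0012 (adjusted p = 1.00, edgeR).

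The same held in the Roundup groups. The log2 fold change was 1.19 ± 0.57 in LR and -0.09 without LR3, 0.74 ± 0.52 in MR and -0.44 without MR1 and MR4, and 0.11 ± 0.46 in HR and -0.54 without HR3 (SE). Adjusted p-values with all fish were 0.64, 0.75 and 0.98 in LR, MR and HR (edgeR). Of these 5 top fish 4, LR3, MR1, HR3 and LG1, were among the 5 that stand apart over the whole transcriptome, and HG3, with a departure of 0.457, was not.

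The leading transcript of the other ddit4l component was below the controls in 4 of the 5 fish that stand apart. For comp116614_c7_seq2, LR3 (0.761 CPM), MR1 (0.495), MR4 (0.334) and LG1 (0.421) lay below the lowest control at 1.15 CPM, and HR3 at 1.37 CPM lay inside the control range. LR4 (0.644), HR2 (0.7997), HR6 (0.739) and HG2 (1.01 CPM), which do not stand apart, were below it too. The remaining LG fish had between 1.40 and 2.63 CPM. The log2 fold changes were -0.39 ± 0.27 in LR, -0.10 ± 0.36 in MR, -0.46 ± 0.27 in HR and -0.02 ± 0.29 in LG (SE), with adjusted p-values of 0.77, 0.97, 0.78 and 0.99 (edgeR). Without the fish that stand apart they were -0.26 in LR, 0.33 in MR, -0.45 in HR and 0.18 in LG.

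**Figure D4:**
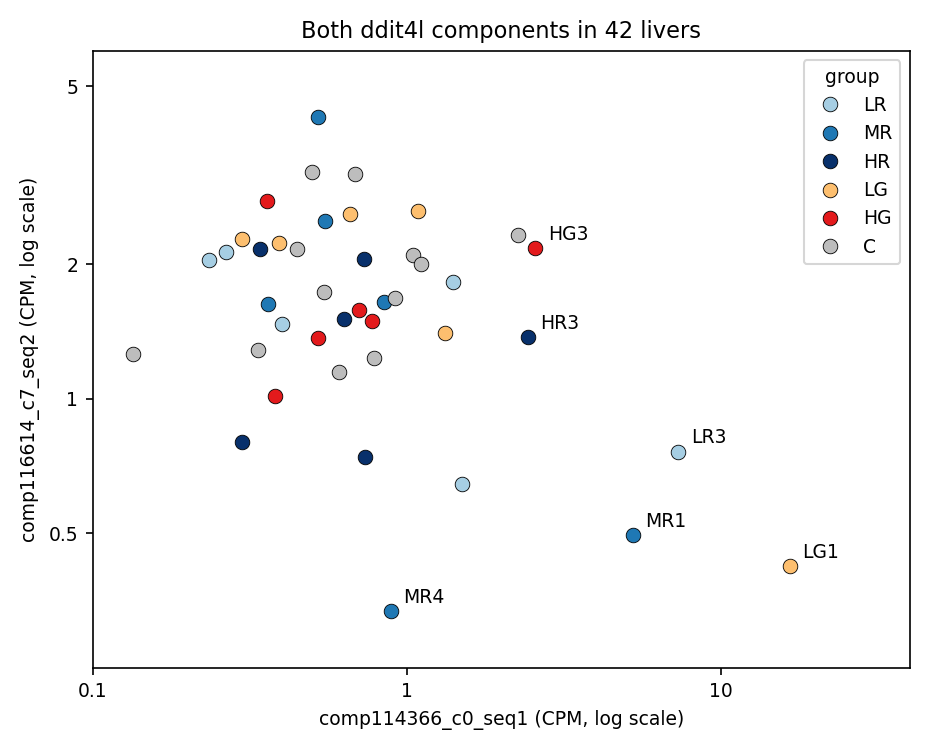
Levels of both ddit4l components in 42 livers, with comp114366_c0_seq1 on the horizontal and comp116614_c7_seq2 on the vertical axis (CPM, both logarithmic). Each point is 1 fish, coloured by group, and names mark the 5 fish with a departure over 0.5 and HG3. LG1, MR1 and LR3 lie at the lower right, with 16.6, 5.24 and 7.33 CPM on the horizontal axis.

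The shares of the comp116614_c7 isoforms were compared in the same way. Over fish with at least 20 reads on the component, seq1 took 39.5% ± 1.89 of reads in LR (SD, n = 4), 38.4% ± 2.55 in MR (n = 4), 35.1% ± 10.2 in HR (n = 6), 34.9% ± 9.72 in LG (n = 5) and 35.4% ± 10.7 in controls (n = 12). Exact permutation tests of the difference of means, 2-sided over all splits of the fish, gave p = 0.49, 0.64, 0.95 and 0.91 for LR, MR, HR and LG, and 0.95 for each after adjustment over the 4. In HG the share was 34.8% ± 15.1 (n = 6).

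The group medians put comp118741_c0_seq3 in the order HG (1.96 CPM), LG (1.201), HR (0.729), LR (0.412), C (0.284) and MR (0.183). For comp112788_c0_seq3 the order was LG (1.06 CPM), C (0.765), MR (0.675), LR (0.517), HR (0.389) and HG (0.386). For comp116614_c7_seq2 it was LG (2.25 CPM), C (1.86), LR (1.65), MR (1.64), HG (1.54) and HR (1.44), and for comp114366_c0_seq1 LR (0.902 CPM), LG (0.874), MR (0.697), HR (0.681), C (0.647) and HG (0.612). In all 4 orders every group's range overlapped that of its neighbour, so no neighbouring pair was apart beyond its spread.

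Transcripts most like each leading transcript were sought by Pearson's r of log2 CPM over 42 fish, among 31088 transcripts outside the 4 components, as a description with no p. For comp118741_c0_seq3 the annotated ones of the 5 closest were a FOXA2 transcript (r = 0.72), encoding a liver transcription factor, and an IGFBP1 transcript (r = 0.68), encoding a binding protein of insulin-like growth factors. IGFBP1 had its highest HG level in HG5 too, at 145 CPM, against between 3.39 and 118 CPM in controls. Without HG5 the values were 0.66 and 0.62. For comp112788_c0_seq3 the closest were UFL1 (r = 0.58), 3 transcripts of asteroid homolog 1 (0.55 to 0.56) and ERO1LB (0.54), an enzyme that forms disulphide bonds in the endoplasmic reticulum.

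For comp114366_c0_seq1 the 5 closest were ATP6V1G1 (r = 0.82), ATF5 (0.81), EIF4A1 (0.81), a transcript annotated only as zgc:158450 (0.81) and HSPA5 (0.81), the main chaperone of the endoplasmic reticulum. These correlations were between 0.50 and 0.56 over the 37 fish left without those that stand apart. The HSPA5 transcript was highest in the same fish as comp114366_c0_seq1 in all 5 exposed groups, with 163 CPM in LR3, 197 in MR1, 163 in HR3, 495 in LG1 and 47.8 CPM in HG3, against between 9.06 and 47.7 CPM in controls. For comp116614_c7_seq2 the named ones were AGMAT (r = 0.76) and ESYT2 (0.74), and the other 3 had no annotation. All these points share libraries, and a fish that stands apart enters every pair.

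The pathway around DDIT4 was read from 10 lists of genes, matched by gene symbol to between 425 and 434 transcripts per table, a gene on 2 lists counting in each. With edgeR's quasi-likelihood test 0 of these transcripts were called in any of the 5 comparisons with controls. It called between 0% (LG) and 0.0209% (LR) of all transcripts there. In HG 54 of 434 (12.4%) had an unadjusted p under 0.05 (edgeR), beside 6.48% of all transcripts. Of the 54, 18 were on the glucocorticoid list, 12 on the hypoxia list and 11 on that of TXNIP and ARRDC3. Each other list held between 0 and 3. Many of the listed transcripts are isoforms of the same genes in the same fish, so they are not independent. In the other comparisons the share was between 6.32% (HR) and 8.88% (LR), beside between 6.72% (LG) and 8.93% (MR) of all transcripts. Counting each of the 419 to 428 transcripts once, DESeq2 called 1 higher in each group except HG, where it called 0, beside 0.249% (LR), 0.743% (MR), 0.275% (HR), 0.0504% (LG) and 0.0346% (HG) of all transcripts. The exact test called 5 higher and 1 lower in LG (0.446% of all), 2 higher in HR (0.671%), 1 higher in MR (0.992%) and 0 in LR (0.163%) and HG (0.0551%).

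On the arm on which DDIT4 acts the quasi-likelihood test called 0 transcripts, beside between 0% and 0.0209% of all transcripts, so the 0 does not set the arm apart. For TSC1 and TSC2, the complex that switches Rheb off, the most abundant transcripts had log2 fold changes between -0.37 and 0.24 over the 5 comparisons, and for MTOR and RPTOR, the kinase and its mTORC1 partner, between -0.19 and 0.35. A RHEB transcript was not among those listed in all 5 tables and matched by symbol. In HG the median over 22 transcripts of the TSC and Rheb arm was -0.19, beside -0.00 over all transcripts tested, and that over 39 transcripts of mTOR complex subunits was -0.03. Among substrates, EIF4EBP1, a repressor of translation that mTORC1 inactivates, had a mean of 3.86 ± 0.894 CPM in HG fish and 4.09 ± 0.911 CPM in controls (SD, n = 6 and 12). The sestrins SESN1, SESN2 and SESN3, other brakes on mTORC1, had log2 fold changes between -0.37 and 0.33 in the 5 comparisons. Over the whole list of other brakes the median was -0.23 in HG, with 5 of 25 transcripts above 0. It was 0.03 in LR, -0.06 in MR, -0.20 in HR and -0.11 in LG. Without the fish that stand apart these 4 medians were 0.12, 0.19, -0.04 and 0.04.

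TXNIP, a protein that binds DDIT4 in mammals, had its most abundant transcript at a mean of 22.9 ± 13.9 CPM in HG fish and 11.7 ± 7.68 CPM in controls (SD, n = 6 and 12), with a log2 fold change of 0.95. The lowest adjusted p of this transcript over the 5 comparisons was 0.74 (edgeR). Over the 42 transcripts named TXNIP or ARRDC3, isoforms of 2 genes, the median log2 fold change was 0.33 in HG. Of these, 11 had an unadjusted p under 0.05 in HG (edgeR), beside 6.48% of all transcripts. The count was 10 in LG, where the median was -0.06, 6 in LR, and 0 in MR and HR. The most abundant transcripts of HIF1A, NR3C1, CEBPB and ATF4, transcription factors that raise DDIT4 in mammals, had log2 fold changes between -0.33 and -0.03 in HG and between -0.02 and 0.62 in the other groups. Over the whole list of 9 such factors the median in HG was -0.13 over 41 transcripts. DESeq2 called 1 ATF4 transcript higher in LR.

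Transcripts of glucocorticoid targets, such as FKBP5, had a median log2 fold change of 0.19 in HG, with 102 of 128 above 0, and between -0.21 and 0.02 in the other 4 comparisons. The 128 transcripts are isoforms of 9 genes in the same fish, so they are not independent. An unadjusted p under 0.05 (edgeR) was held by 18 of them in HG, beside 6.48% of all transcripts. The count was 5 in LR, 8 in MR, 7 in HR and 3 in LG. In HG 0 of them were called by the quasi-likelihood test, the exact test or DESeq2. These called 0.00157%, 0.0551% and 0.0346% of all transcripts there. Hypoxia targets had a median of -0.12 in HG over 48 transcripts, and EGLN3, a prolyl hydroxylase that marks HIF for destruction, had -0.14 there. Of the 48, 17 had a log2 fold change above 0 in HG. An unadjusted p under 0.05 (edgeR) was held by 12 of the 48, beside 6.48% of all transcripts. The count was 8 of 47 in LR, 3 of 45 in MR, 5 of 45 in HR and 3 of 49 in LG. Of all transcripts 7.75%, 8.93%, 7.34% and 6.72% held one there. The 48 hypoxia transcripts are isoforms of 9 genes in the same fish, so they are not independent. The exact test and DESeq2 each called 1 BNIP3 transcript of this list higher in HR. The exact test called 2 IGFBP1 transcripts, a gene on the hypoxia and glucocorticoid lists, higher in LG. CDKN1A, a brake on the cell cycle, had -0.36 in HG. GADD45A, a stress gene that also slows the cell cycle, had a mean of 1.48 ± 0.538 CPM in LG fish and 2.83 ± 0.901 CPM in controls, a log2 fold change of -0.96. The exact test called 1 GADD45A transcript lower in LG.

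Targets of ATF4 in the integrated stress response had medians above 0 in all 5 comparisons. This response is the programme that cells run when translation is slowed by stress. For these targets edgeR's quasi-likelihood test called 0 transcripts, beside at most 0.0209% of all transcripts. An unadjusted p under 0.05 (edgeR) was held by 10 of 19 for LR, 8 for LG, 7 for MR, 4 for HR and 1 for HG. Of all transcripts, between 6.48% (HG) and 8.93% (MR) held one. Leaving out the fish that stand apart, the counts were 5 for LR, 1 for LG, 2 for MR and 0 for HR. The 19 transcripts come from 9 genes in the same fish and are not independent. The median log2 fold change over 19 transcripts was 0.48 in LR, 0.39 in MR, 0.42 in HR and 0.47 in LG, and 0.15 in HG, beside between -0.00 and 0.01 over all transcripts. Without the fish that stand apart the medians were 0.26 in LR, -0.13 in MR, 0.12 in HR and 0.07 in LG. The exact test called 1 ATF3 transcript higher in MR and in HR, and 2 transcripts, of ATF3 and ATF5, higher in LG. Of this list DESeq2 called 1 transcript, of ATF3 in MR. DDIT3, a stress factor of that list and no relative of DDIT4 despite its name, had log2 fold changes between -0.46 and -0.06 in the 5 comparisons.

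Livers held other cells as well, and in bulk tissue fewer cells of a type and less RNA per cell cannot be told apart. Summed over 6 of 9 leukocyte markers matched, levels ran between 135 and 226 CPM in HG fish and between 137 and 356 CPM in controls, and over 3 of 7 red cell markers between 467 and 720 CPM in HG fish and between 264 and 704 CPM in controls. HG5 had 182 CPM of leukocyte and 489 CPM of red cell markers, both inside the control range. LG1 had the highest summed hepatocyte level of the 42 fish, at 151716 CPM, and the part of this in its ddit4l level was not tested.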

How the data were processed

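RNA of 42 single livers (12 C and 6 each of LR, MR, HR, LG and HG) was analysed from 5 tables, 1 per treatment, each holding the same 12 controls. The values are raw counts that the authors deposited per transcript of their Trinity assembly, after mapping with Bowtie2 2.1.0 (1 hit per read) and counting with SAMtools 0.1.18. The 5 further columns of each table (the authors' own test results) were not used. 1 line of the HR table that repeats its header was dropped. Every listed transcript had over 1 CPM in at least 3 of 18 fish. Annotation is the authors' best hits, and no build or coordinates are given.

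A transcript was tested where 6 or more of 18 fish had a read, in R 4.3.3 with edgeR 4.0.16 (TMM, quasi-likelihood F-test, 2-sided, Benjamini-Hochberg over all transcripts of a table, FDR under 0.1). Fold changes are exposed over control. Intervals are 1.96 SE either way, a normal limit, and so are narrower than the F-test behind the p-values would give. CPM uses TMM effective library sizes from the 59706 transcripts listed in all 5 tables. Departure is the mean absolute difference of log2 CPM (prior count 2) from the median of the other fish of the group. Isoform shares were compared by exact permutation tests (SciPy 1.17.1). Alternatives were edgeR's exact test (prior df 10), DESeq2 1.42.0, RLE factors, other filters, a robust fit, a joint fit, component sums, a replicate block and leaving out each fish. Scripts were tested on simulated data.

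All member transcripts are given, with the leading one of each component per fish. From the gene lists, counts of calls and the most abundant transcript of 20 fixed genes were taken, and likeness names the 5 highest correlations. Gene and lists were chosen with earlier results of these data known. No 2 libraries were identical, the highest correlation of log2 CPM being 0.95. Results of 1 named gene and 1 gene list are not reported here.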

Additional observations from a re-analysis of the deposited data

Results flagged for a closer look

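In 16 sets of 6 fish (4 leading transcripts in LR, MR, HR and LG), a fish stood apart from the rest of its group in 7, by a gap to its neighbour that exceeded the 95% limit of Dixon's test. Chance gives about 1 in 20 such sets for normal values, and the CPM were not transformed, so the count is a description. The limit was not applied to the 12 controls, and the HG values, which chose the gene, are given without a test.

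For comp114366_c0_seq1 (ddit4l) this held in LR, MR, HR and LG. LR3 had 7.33 CPM, against 0.234 to 1.50 CPM in the other LR fish, MR1 5.24 against 0.362 to 0.892 CPM, HR3 2.43 against 0.300 to 0.739 CPM and LG1 16.6 against 0.300 to 1.33 CPM. In HG the top fish, HG3, had 2.57 against 0.360 to 0.774 CPM.

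For comp118741_c0_seq3 (ddit4) MR1 had 7.22 CPM, against between 0 and 1.23 CPM in the other MR fish. In HG the top fish, HG5, had 26.4 CPM, against between 0.798 and 3.16 CPM in the others. For comp112788_c0_seq3 (ddit4) LG1 had 3.65 CPM, against between 0.918 and 1.38 CPM in the other LG fish, and MR6 had 2.49 CPM, against between 0.226 and 1.05 CPM in the other MR fish.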

How the results depend on the processing

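Members rest on few reads, and with 6 fish per group 1 fish can set a mean. Under planned and added alternatives other than leaving out single fish, 162 tested values kept direction and side of the threshold, 13 changed direction and 1 passed it. In LR, MR, HR, LG and LG against LR, only the exact test called a member (comp114366_c0_seq1 in LG, 2.07, adjusted p = 0.086). Members carry no test in HG. Causes were not tested.

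For comp114366_c0_seq1 the log2 fold change turned to -0.088 in LR without LR3, -0.44 in MR without MR1 and MR4, -0.54 in HR without HR3 and -0.0012 in LG without LG1, alternatives chosen after seeing the data. So did comp118741_c0_seq3 in MR (-2.19) and comp116614_c7_seq2 in MR (0.33) and LG (0.18). With a replicate block the values were 0.12 for comp118741_c0_seq3 in LR, -0.25 for comp112788_c0_seq3 in MR, and for comp114366_c0_seq1 -0.18 in HR and -0.010 in LG against LR. The share of comp116614_c7_seq1 in LG was 2.03 percentage points above controls at a minimum of 10 reads (-0.50 at 20), and in MR -0.86 at 50 reads (3.05 at 20). Groups with under 2 fish at 50 reads gave no value.

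Leaving out each fish in turn, comp114366_c0_seq1 ran between -0.088 and 1.44 in LR, -0.29 and 1.00 in MR, -0.54 and 0.38 in HR, -0.0012 and 2.32 for LG fish, -0.51 and 0.46 for HG fish, and -1.19 and 2.17 in LG against LR. For comp118741_c0_seq3 the range was -0.55 to 0.084 in LR, -0.58 to 1.76 in MR and 1.97 to 3.86 in HG. For comp112788_c0_seq3 in MR it was -0.59 to 0.22, and for comp116614_c7_seq2 -0.52 to 0.12 in MR and -0.13 to 0.18 in LG.

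Counts of all transcripts called by the quasi-likelihood test, exact test and DESeq2 were 13, 101 and 155 in LR and 1, 622 and 466 in MR. They were 4, 420 and 172 for HR, 0, 283 and 32 for LG and 1, 35 and 22 for HG, and 0 and 13 (exact test) in LG against LR. With the replicate block they were 0, 0, 3, 0 and 2 in LR, MR, HR, LG and HG. The numbers pair no fish: between 1 and 2 of 6 same-numbered pairs per group deviated together with a correlation over 0.1 (range -0.36 to 0.27), and at most 1 of 6 correlated best with its own number. The robust fit called 1 in LR and 0 in HG, component sums 9 in LR and 0 in the other 4, and the joint fit 5 in LR, 0 in HR, 7 in LG and 0 in HG. Without the fish that stand apart 0 were called in LR, MR, HR and LG.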
